A study of Mus musculus with 5 samples.

Results

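The genes described here encode 10 mitogen-activated protein (MAP) kinase kinase kinases, *Map3k1*, *Map3k2*, *Map3k3*, *Map3k4*, *Map3k5*, *Map3k7*, *Map3k9*, *Map3k10*, *Map3k11* and *Map3k12*, in sympathetic neurons with and without *Hif1a*. They were taken from the count table by Ensembl gene identifier, and all 10 of 10 were found among its 20224 genes and passed the filter on low counts that left 15032 genes tested. The group was chosen by the measured difference of *Map3k1* between the genotypes in these same libraries, and the other 9 members were added as kinases of the same tier. Every difference between genotypes in a member is therefore given as a description. Where members are counted among tested genes, the counts carry no evidence about them.

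RNA was sequenced from 5 libraries of 100 cells each, sorted from the sympathetic ganglia of mouse embryos at E14.5 (embryonic day 14.5) from non-diabetic pregnancies. The 3 *Hif1aCKO* libraries (replicates 3, 4 and 5) came from *Hif1aCKO-Ai14;Prph-eGFP* embryos, in which both *Hif1a* alleles were floxed (*Hif1a* loxP/loxP), with *Isl1Cre* and *tdTomatoAi14*. The 2 control libraries (replicates 5 and 6) came from *Control-Ai14;Prph-eGFP* embryos, which had 1 floxed and 1 wild-type *Hif1a* allele (*Hif1a* loxP/+). By these genotypes, both groups carried the *Isl1-Cre* knock-in, the *Ai14* tdTomato reporter and the *Prph-eGFP* transgene. The series description also lists controls that lack *Isl1-Cre*, whereas the sort for tdTomato requires Cre, and the genotype of each control embryo is not stated further. The *Isl1-Cre* allele came from FVB mice and the floxed allele from a mixed C57BL/6J;C57BL/6N stock, so the libraries can differ in strain background. Cre acts wherever *Isl1* is or has been expressed, and cells were kept only when they were positive for both eGFP, driven by peripherin, and tdTomato. The libraries are called biological samples, with nothing more on whether each came from a separate embryo.

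MAP kinase cascades pass a signal through tiers of kinases, in which a MAP kinase kinase kinase (MAP3K) phosphorylates a MAP kinase kinase (MAP2K), which in turn phosphorylates a MAP kinase such as ERK, JNK or p38. MAP3Ks respond to growth factors, cytokines, stress and damage, and several of them feed the same MAP2K. In neurons, the dual leucine zipper kinase (DLK), encoded by *Map3k12*, drives JNK signaling after axon injury and after withdrawal of nerve growth factor, on which sympathetic neurons depend. *Hif1a* encodes the oxygen-regulated subunit of the transcription factor HIF-1, which binds the core motifs ACGTG and GCGTG in hypoxia response elements.

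The *Map3k1* message was the member that stood lowest in *Hif1aCKO* neurons relative to controls, at 2.78-fold below the control mean, and *Map3k12* was 1.47-fold above it. These were the only members of the 10 whose groups of libraries did not overlap, a pattern seen in 25.7% of all genes tested. The remaining 8 members lay within the spread of the libraries, with log2 fold changes from -0.73 to 1.07. The ratio of *Map3k12* to *Map3k1* counts was 1.07 and 0.853 in controls and 2.46, 5.02 and 4.93 in *Hif1aCKO*. It had to be higher in every *Hif1aCKO* library, because *Map3k1* was lower and *Map3k12* higher in all of them. The ratio therefore adds no evidence.

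The sequence before the start sites is shown for *Map3k1* and *Map3k12*, the members whose groups did not overlap. It is given because the deleted gene encodes a DNA-binding factor. Each run is the 250 bases upstream of an annotated RefSeq start site on GRCm38.p6, 5′ to 3′ on the strand of the gene, with any match to ACGTG or GCGTG on either strand in capitals. The first lies on the minus strand at chr13:111808994-111809243, and the others belong to the inner (downstream) and outer start sites of *Map3k12* and lie on the minus strand at chr15:102510701-102510950 and chr15:102517005-102517254.
*Map3k1*: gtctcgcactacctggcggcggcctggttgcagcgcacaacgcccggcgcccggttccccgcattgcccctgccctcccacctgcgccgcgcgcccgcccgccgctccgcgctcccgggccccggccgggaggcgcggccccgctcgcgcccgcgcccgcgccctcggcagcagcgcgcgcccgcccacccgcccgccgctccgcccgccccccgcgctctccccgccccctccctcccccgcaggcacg
*Map3k12*, inner start site: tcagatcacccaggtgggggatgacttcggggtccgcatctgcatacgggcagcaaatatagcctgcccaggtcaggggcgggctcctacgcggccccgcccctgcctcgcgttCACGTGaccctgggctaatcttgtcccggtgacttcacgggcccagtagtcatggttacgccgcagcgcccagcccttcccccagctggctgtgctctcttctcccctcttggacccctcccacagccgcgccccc
*Map3k12*, outer start site: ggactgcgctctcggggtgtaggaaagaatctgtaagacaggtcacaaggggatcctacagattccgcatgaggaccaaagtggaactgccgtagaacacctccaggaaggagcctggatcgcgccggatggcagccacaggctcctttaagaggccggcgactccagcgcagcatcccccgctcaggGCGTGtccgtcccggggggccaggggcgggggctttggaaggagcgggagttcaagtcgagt

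The *Map3k1* run held neither motif and was 85.2% G and C, higher than 99.9% of the upstream runs in the RefSeq table. The inner *Map3k12* run, at 66.8% G and C, held CACGTG, a palindrome that contains ACGTG on both strands and is also the E-box of other factors. The outer run, at 62.8%, held 1 GCGTG. The search covered windows of 250 bases before and 50 after each start site, and 9 of the 10 members were in the table, with 10 windows. Either motif was present in 6 of these 10 windows, for 5 of 9 members, compared with 43.8% of all 32851 windows. ACGTG was found in 19.6% and GCGTG in 32.4% of all windows. Of the other members, *Map3k10* held ACGTG, *Map3k4*, *Map3k5* and *Map3k9* held GCGTG, and *Map3k3*, *Map3k7* and *Map3k11* held neither. A match describes letters only, and no binding was measured.

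The counts of the whole table set the precision. Total counts ranged from 8254211 to 9700887 per library, and TMM factors from 0.974 to 1.03. *Hif1a* itself had normalized counts (scaled for library size) of 2086 and 1584 in the controls and 2747, 1757 and 2135 in *Hif1aCKO*, and the groups overlapped. The deletion removes exon 2, which a count per gene cannot show, so this gene does not check the labels. *Prph*, behind the eGFP sort, was at 4483 and 5966 in controls and 6541, 5927 and 4970 in *Hif1aCKO*. The *Isl1* message, whose gene carries the Cre, was at 12577 and 14019 in controls and 8634, 7800 and 8722 in *Hif1aCKO*. Schwann cell precursor markers, with *Sox10*, *Erbb3* and *Fabp7* among the 4 of 7 in the table, summed to between 30.6 and 55.2 in 4 of the libraries and to 1144 in *Hif1aCKO* 3, of which *Fabp7* made 993. Mesenchyme markers, 3 of 7 in the table, summed to 2.78 to 10.4 in controls and 8.58 to 24.3 in *Hif1aCKO*. For 2 controls and 3 *Hif1aCKO* libraries, the smallest p-value that exact permutation allows for a gene on its own is 0.1. In bulk libraries, fewer cells of a type and less RNA per cell cannot be told apart.

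*Map3k1* (ENSMUSG00000021754, chr13:111746428-111808993, minus strand) encodes MEKK1, a kinase that also carries a RING-type ubiquitin ligase domain and signals to JNK and ERK. Its normalized counts were 1041 and 1101 in the controls and 487, 339 and 330 in the *Hif1aCKO* libraries. Every *Hif1aCKO* library was below both controls, and the highest *Hif1aCKO* value was *Hif1aCKO* 3. The means were 1071 ± 42.7 (SD, n = 2) in controls and 385 ± 88.2 (SD, n = 3) in *Hif1aCKO*, a log2 fold change of -1.48 ± 0.21 (SE). It stayed between -1.68 and -1.38 in the fits that left out 1 library, and the value furthest from 0 was the one without *Hif1aCKO* 3. That library also held the Schwann cell precursor counts, whose part in the value of *Map3k1* was not tested. No other gene in the annotation shares exonic bases with *Map3k1*.

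The other members of the MEKK group did not show this pattern. *Map3k2* (MEKK2, chr18:32163089-32236751, plus strand), an activator of the ERK5 branch, had counts of 151 and 230 in controls and 225, 406 and 180 in *Hif1aCKO*, so that the groups overlapped and 1 library, *Hif1aCKO* 4, stood above the rest. Its log2 fold change was 0.50 ± 0.40. *Map3k3* (MEKK3, chr11:106084613-106155446, plus strand), its close relative in the same branch, had 158 and 174 in controls and 144, 231 and 134 in *Hif1aCKO*, again with the highest value in *Hif1aCKO* 4. Its log2 fold change was 0.03 ± 0.34. *Map3k4* (MEKK4, chr17:12227621-12318796, minus strand), which GADD45 proteins activate, had 390 and 299 in controls and 323, 380 and 212 in *Hif1aCKO*. The groups overlapped, at a log2 fold change of -0.17 ± 0.30.

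*Map3k5* (ASK1, chr10:19934472-20142753, plus strand), the redox-sensitive kinase that thioredoxin holds inactive, was near the limit of detection. Its raw counts were 20 and 12 in controls and 0, 20 and 9 in *Hif1aCKO*, and a count of 0 allows up to 3 counts in a library of this depth by counting error alone. The log2 fold change of -0.73 had an SE of 1.37 and moved between -1.82 and -0.15 as libraries were left out. *Map3k7* (TAK1, chr4:31964097-32023467, plus strand), which relays TGF-β, BMP and cytokine signals, had normalized counts of 222 and 192 in controls and 263, 130 and 195 in *Hif1aCKO*. The lowest and the highest of the 5 values were both *Hif1aCKO* libraries, and the log2 fold change was -0.08 ± 0.34.

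The mixed-lineage kinases, which activate JNK, were represented by *Map3k9* (MLK1, chr12:81721010-81781175, minus strand), *Map3k10* (MLK2, chr7:27656375-27674598, minus strand) and *Map3k11* (MLK3, chr19:5688742-5702865, plus strand). *Map3k9* had raw counts of 11 and 11 in controls and 7, 26 and 9 in *Hif1aCKO*, too few to show a difference at this depth (log2 fold change 0.38 ± 1.01). It passed the filter on low counts in 4 of the 5 fits that left a library out. *Map3k10* had raw counts of 16 and 19 in controls and 11, 42 and 56 in *Hif1aCKO*. *Hif1aCKO* 4 and 5 were thus above both controls and *Hif1aCKO* 3 was below both, and the log2 fold change of 1.07, the highest of the 10, had an SE of 0.83. Without *Hif1aCKO* 3, the groups of *Map3k10* did not overlap. *Map3k10* shares 14.8% of its exonic bases with *Ttc9b* on the opposite strand, a gene at 706 and 595 in controls and 920, 935 and 967 in *Hif1aCKO*. *Map3k11* had normalized counts of 136 and 47.3 in controls and 86.9, 113 and 129 in *Hif1aCKO*. Its controls lay on both sides of all 3 *Hif1aCKO* libraries, and 1 control set its sign: the log2 fold change of 0.26 ± 0.49 became 1.21 without control 5 and -0.32 without control 6.

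*Map3k12* (ENSMUSG00000023050, chr15:102497646-102517064, minus strand) encodes DLK. Its normalized counts were 1118 and 939 in the controls and 1198, 1700 and 1625 in the *Hif1aCKO* libraries. All 3 *Hif1aCKO* libraries were above both controls, although *Hif1aCKO* 3 was only just above control 5. The means were 1028 ± 127 (SD, n = 2) and 1507 ± 271 (SD, n = 3), a log2 fold change of 0.55 ± 0.20 that stayed between 0.43 and 0.69 with each library left out. Of the exonic bases of *Map3k12*, 17.5% lie opposite *Pcbp2* and 1.77% opposite *Gm10337*. *Pcbp2* had 1562 and 1138 in controls and 1378, 2006 and 2221 in *Hif1aCKO*, a log2 fold change of 0.47 ± 0.24 with overlapping groups. The paper gives default parameters for the count and names no strand setting. The part of *Pcbp2* and *Ttc9b* reads in the counts of these kinases was not tested. *Map3k13*, which encodes LZK, the closest relative of DLK, had 224 and 237 in controls and 243, 228 and 379 in *Hif1aCKO*.

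**Figure D1:**
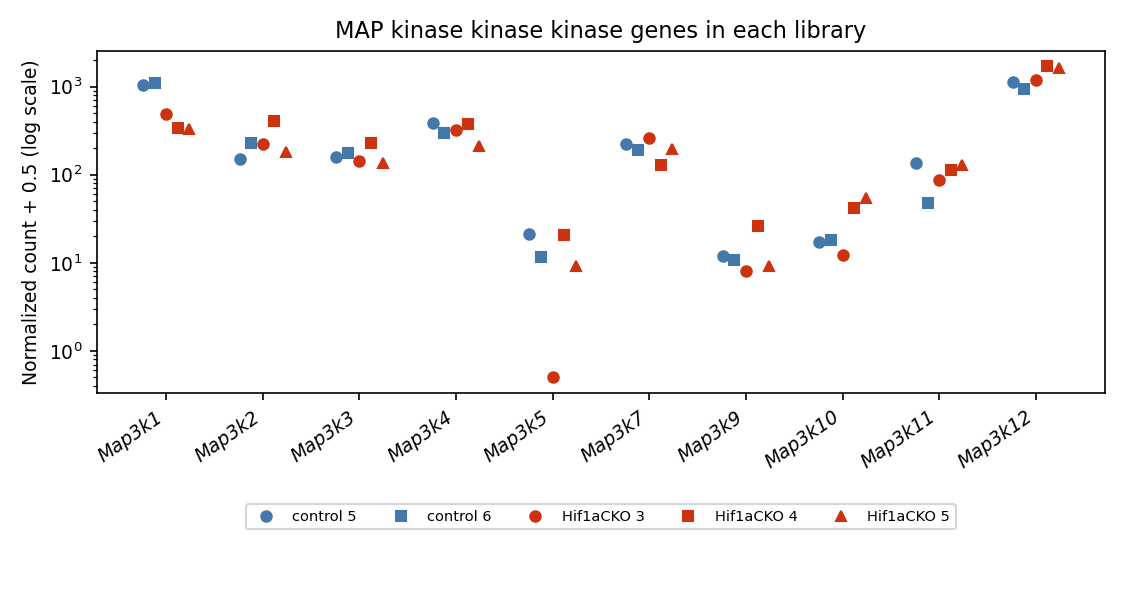
Normalized count plus 0.5 (log scale) of each of the 10 members, with 1 point for each of the 2 control libraries (blue) and 3 *Hif1aCKO* libraries (red). The *Hif1aCKO* points of *Map3k1* (330 to 487) lie below both controls (1041 and 1101), those of *Map3k12* (1198 to 1700) lie above both controls (939 and 1118), and the groups of every other member overlap.

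The background over all genes shows how often such patterns occurred. The edgeR quasi-likelihood test with Benjamini-Hochberg adjustment called 0 of 15032 genes (0%) and 0 members, and 1153 genes (7.67%) had an unadjusted p-value under 0.05, among them 2 members, *Map3k1* and *Map3k12*. DESeq2, the tool of the study, called 60 of the 15478 genes with an adjusted p-value (0.388%), among them 1 member, *Map3k1*. Because this contrast chose the members, these counts carry no evidence about them. Groups did not overlap in 25.7% of all genes tested and in 2 of 10 members. In the lower direction, this was 12.9% of genes and 1 member, and in the higher direction 12.9% of genes and 1 member. Without *Hif1aCKO* 3, groups did not overlap for 3 members and 44.1% of genes. Of the 10 members, 6 were higher and 4 lower in *Hif1aCKO*, with a median log2 fold change of 0.14, beside 0.01 over all genes tested.

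**Figure D2:**
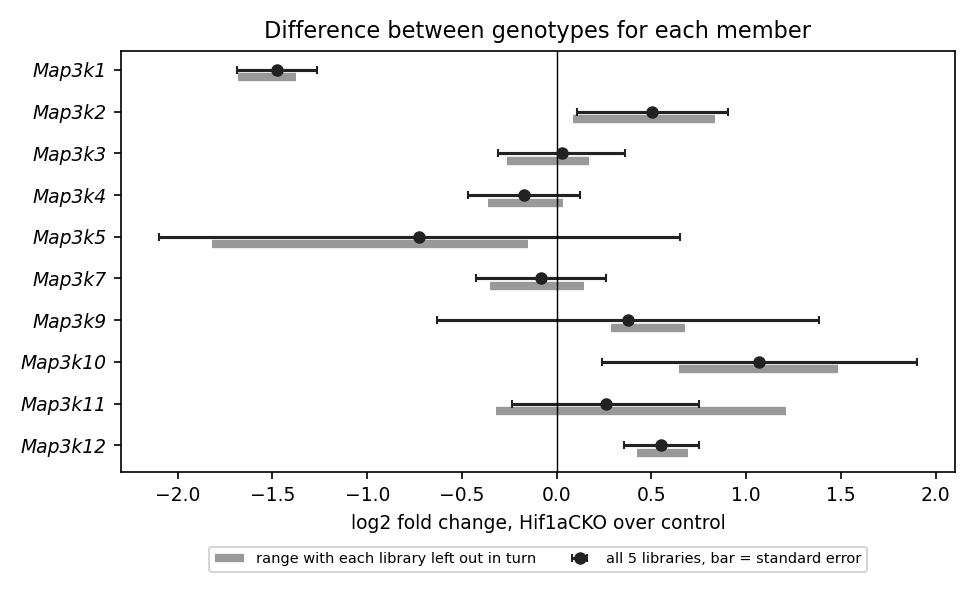
Log2 fold change of each member, *Hif1aCKO* over control, from all 5 libraries (black points, bars are the standard error), with the range over fits that left out each library in turn (grey). *Map3k1* stays between -1.68 and -1.38 and *Map3k12* between 0.43 and 0.69, whereas *Map3k11* runs from -0.32 to 1.21 and *Map3k3*, *Map3k4*, *Map3k7* and *Map3k11* reach both sides of 0.

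Levels of different genes were compared only per kb of exon (the union of annotated exons). On this scale, the mean level over the 5 libraries was 146 ± 36.8 (SD) normalized counts per kb for *Map3k12* and 88.5 ± 51.2 for *Map3k1*, at the 76.9th and 66.7th percentile of all genes tested. *Map3k3* (41.8), *Map3k4* (31.5), *Map3k7* (31.2), *Map3k11* (23.3) and *Map3k2* (17.1) formed a middle range. *Map3k10* (6.88), *Map3k9* (2.16) and *Map3k5* (1.99) were lowest, and these 3 members had a mean normalized count under 50. The values of neighbors in this order overlapped between libraries in 9 of 9 pairs. Within libraries, *Map3k3* was above *Map3k4* and *Map3k10* above *Map3k9* in 5 of 5, and the other neighbors kept their order in 2 to 4 of 5.

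*Map3k1* and *Map3k12* had the highest mean levels of the 10 members, and their groups lay apart in opposite directions. They are compared for that reason, so the separation of their ratio follows from the choice and adds no evidence. On the union of exons, *Map3k1* was at 140 and 148 counts per kb in controls and at 65.4, 45.5 and 44.3 in *Hif1aCKO*. *Map3k12* was at 124 and 104 in controls and at 133, 189 and 181 in *Hif1aCKO*. The ratio of *Map3k12* to *Map3k1* per kb, which does not depend on how libraries are scaled, was 0.890 and 0.706 in controls and 2.04, 4.16 and 4.08 in *Hif1aCKO*. Which of them was higher in controls depended on the length used: per kb of the longest transcript the ratio was 1.45 and 1.15 in controls and 3.31, 6.76 and 6.63 in *Hif1aCKO*, and per kb of coding length it was 1.81 and 1.43 in controls, so that *Map3k12* was above *Map3k1* in every library. The lowest *Hif1aCKO* ratio was 2.29 times the highest control ratio. This value is the same for any length, because the length scales the ratio equally in every library. Of the level of the 10 members summed on the union of exons, *Map3k1* made 32.7% and 37.9% in controls and 18.8%, 10.8% and 12.0% in *Hif1aCKO*. *Map3k12* made 29.1% and 26.8% in controls and 38.4%, 44.8% and 49.1% in *Hif1aCKO*. These shares are not independent, because a lower level of *Map3k1* by itself raises the share of every other member. The sum itself overlapped between the groups, at 427 and 390 in controls and 347, 422 and 368 in *Hif1aCKO*.

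**Figure D3:**
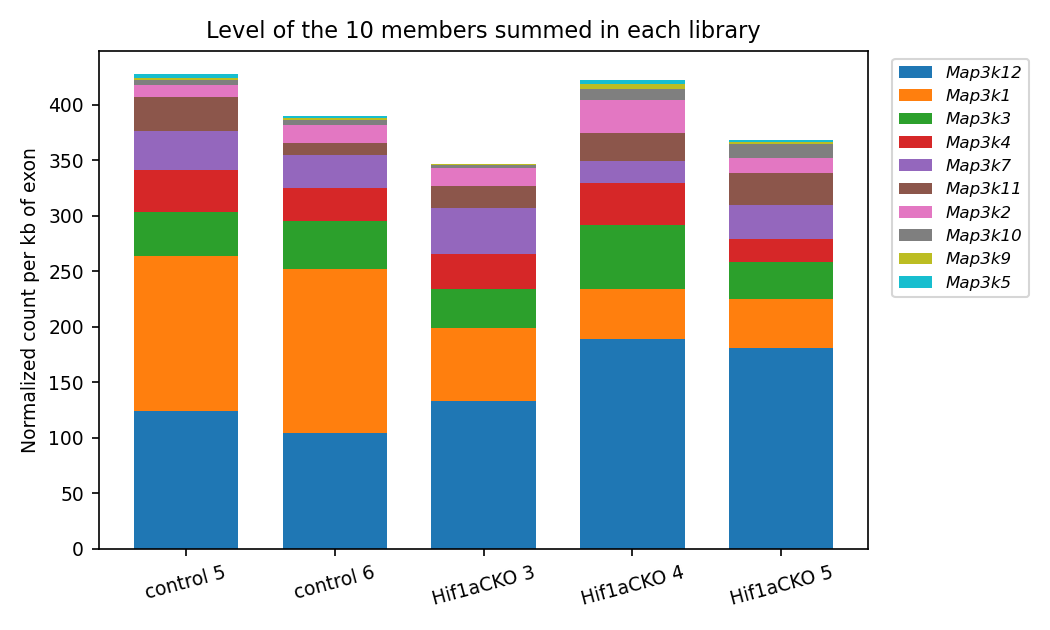
Normalized count per kb of exon of the 10 members, stacked in each of the 5 libraries. *Map3k1* (orange) takes 32.7% and 37.9% of the stack in controls and 10.8% to 18.8% in *Hif1aCKO*, *Map3k12* (blue) takes the largest part in *Hif1aCKO*, and the total heights of the groups overlap (390 to 427 and 347 to 422).

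The other tiers of the cascade were described by 8 lists of 97 genes, of which 94 were in the table and 86 were tested. Of these 86, 46 were higher and 40 lower in *Hif1aCKO*, with a median log2 fold change of 0.04. None was called by edgeR (adjusted p-values from 0.598 to 0.9996) or by DESeq2, and 11 of 86 (12.8%) had an unadjusted p-value under 0.05 in edgeR, 5 higher and 6 lower, beside 7.67% of all genes. Groups did not overlap for 21 of 86, 11 higher and 10 lower, beside 25.7% of all genes, a share near this background. *Map3k8*, *Map3k21* and *Mapk13* were not analysed here.

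Among the 11 tested genes of the list of other MAP3Ks, 6 were higher and 5 lower. *Taok3*, a kinase of the TAO family, was the gene among them with an unadjusted p-value under 0.05, at 425 and 372 in controls and 486, 674 and 545 in *Hif1aCKO* (log2 fold change 0.51 ± 0.21). *Taok2* (0.89 ± 0.40) and *Map3k15* (-0.41 ± 0.23), a relative of ASK1, had overlapping groups. Upstream of the tier, 5 of 7 MAP4Ks were higher and 2 lower, with none at an unadjusted p-value under 0.05. With a mean of at least 50, the smallest p-values belonged to *Map4k2*, at a log2 fold change of 0.61 ± 0.43, *Map4k4* at 0.19 ± 0.20 and *Map4k3* at 0.15 ± 0.33.

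Of the 7 MAP2Ks, the direct substrates of the members, 2 were higher and 5 lower. *Map2k1*, which encodes the ERK activator MEK1, was at 1143 and 1118 in controls and 856, 779 and 726 in *Hif1aCKO*, lower in all 3 of them, at a log2 fold change of -0.52 ± 0.16 (edgeR adjusted p = 0.598). *Map2k3*, which encodes the p38 activator MKK3, was at 154 and 139 in controls and 218, 248 and 220 in *Hif1aCKO*, higher in all 3, at 0.64 ± 0.27 (edgeR adjusted p = 0.637). The JNK activators had overlapping groups, with *Map2k4* at 377 and 613 in controls and 415, 388 and 431 in *Hif1aCKO*, and *Map2k7* at 201 and 130 in controls and 99.7, 181 and 184 in *Hif1aCKO*. The log2 fold changes were -0.27 ± 0.24 and -0.09 ± 0.38.

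Of the 12 MAP kinases tested, 5 were higher and 7 lower. *Mapk12* (p38γ) was at 83.3 and 84.4 in controls and 113, 184 and 166 in *Hif1aCKO*, higher in all 3 of them, at a log2 fold change of 0.88 ± 0.35 (edgeR adjusted p = 0.627). *Mapk6* (ERK3, -0.28 ± 0.16) and *Mapk10* (JNK3, -0.30 ± 0.20) were lower in all 3, whereas *Mapk8* (JNK1, -0.02 ± 0.22), *Mapk9* (JNK2, 0.17 ± 0.21) and *Mapk3* (ERK1, -0.37 ± 0.26) had overlapping groups. Summed per kb of exon over the genes in the table, the means in controls and *Hif1aCKO* were 878 and 784 for the MAP2Ks, 1700 and 1579 for the MAP kinases, 226 and 257 for the MAP4Ks, 988 and 973 for the other MAP3Ks and 409 and 379 for the 10 members.

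Scaffolds and adaptors gave 8 higher and 8 lower of 16. *Lamtor3*, which holds MEK1 and ERK on late endosomes, was at 726 and 739 in controls and 477, 409 and 581 in *Hif1aCKO* (log2 fold change -0.58 ± 0.20, edgeR adjusted p = 0.621). *Traf6*, the ubiquitin ligase upstream of TAK1, was at 501 and 591 in controls and 297, 348 and 415 in *Hif1aCKO* (-0.63 ± 0.22, edgeR adjusted p = 0.621). Both were lower in all 3 *Hif1aCKO* libraries. The JNK scaffold gene *Mapk8ip1* (0.74 ± 0.42) and the TAK1 partner genes *Tab1* (-0.16 ± 0.26), *Tab2* (0.55 ± 0.37) and *Tab3* (0.65 ± 0.60) had overlapping groups.

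Among the 7 genes that act on the turnover or activity of these kinases, 6 were higher and 1 lower. *Usp9x*, which encodes a deubiquitinase of DLK and ASK1, was lower in all 3 *Hif1aCKO* libraries (-0.42 ± 0.18), and *Xiap*, which encodes an inhibitor of apoptosis that binds the TAK1 complex, was higher in all 3 (0.70 ± 0.28). *Mycbp2*, whose product PHR1 targets DLK for degradation, was at 1479 and 2067 in controls and 1465, 2312 and 1804 in *Hif1aCKO*, and its partner *Fbxo45* overlapped as well (0.07 ± 0.23 and 0.10 ± 0.29). *Txn1*, the thioredoxin gene, was at 0.16 ± 0.14.

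MAP kinase phosphatases gave 5 higher and 5 lower of 10. *Dusp8*, which encodes a phosphatase of JNK and p38, was at 2848 and 2950 in controls and 2247, 2157 and 2330 in *Hif1aCKO*, lower in all 3, at -0.37 ± 0.12 (edgeR adjusted p = 0.621). *Dusp7* (0.998 ± 0.51) was higher in all 3 and *Dusp1* (-0.40 ± 0.21) overlapped. *Dusp6*, an ERK phosphatase, had 52 raw counts in *Hif1aCKO* 3 and 0 in the other 4 libraries. *Hif1aCKO* 3 was also the library with the Schwann cell precursor markers, and a link between them was not tested.

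Of 16 nuclear targets, 9 were higher and 7 lower. *Jun*, the main JNK target, was at 813 and 632 in controls and 758, 675 and 780 in *Hif1aCKO*, with the controls on both sides of the *Hif1aCKO* libraries (log2 fold change 0.03 ± 0.18). *Myc* was at 1000 and 1734 in controls and 1043, 787 and 692 in *Hif1aCKO*, with overlapping groups (-0.70 ± 0.27). The stress response factors *Atf4* (0.29 ± 0.16) and *Ddit3* (0.36 ± 0.24) were higher in all 3 *Hif1aCKO* libraries.

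**Figure D4:**
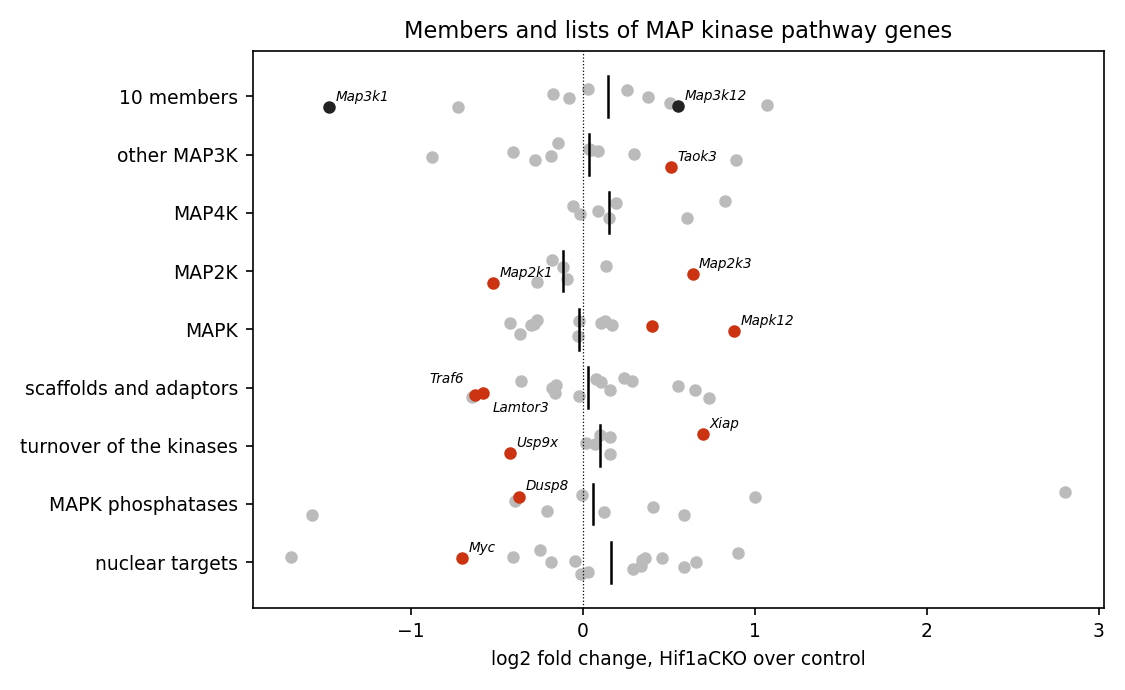
Log2 fold change, *Hif1aCKO* over control, of the 10 members and of the tested genes in each of 8 pathway lists (1 point a gene, vertical bars are list medians). Points in red had an unadjusted p-value under 0.05 in edgeR (11 of 86 genes, 5 higher and 6 lower), none passed the adjustment over all genes, and *Map3k1* and *Map3k12* are in black.

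The genes with profiles nearest to *Map3k1* were found by the root-mean-square difference of log2(normalized count + 0.5), centered on its mean over the 5 libraries, among 10841 genes with a mean of at least 50. They were *Gm4815* (0.10), *Ifit2* (0.13), *Gm7240* (0.17), *Ehbp1l1* (0.18) and *Zscan18* (0.19). *Gm4815* was at 150 and 155 in controls and 67.6, 47.9 and 55.5 in *Hif1aCKO*, and *Ifit2*, an interferon-induced gene, was at 227 and 242 in controls and 113, 91.9 and 86.6 in *Hif1aCKO*. *Gm4815* and *Gm7240* are annotated as processed pseudogenes, whose counts are uncertain because reads that map to several places were not counted. Both lie on chromosome 13, as does *Map3k1*, but neither is within 5 Mb of it. *Gm4815* is at chr13:98613501-98614494 and *Gm7240* at chr13:61804257-61861675. *Ifit2* and *Ehbp1l1* lie on chromosome 19 and *Zscan18* on chromosome 7. Of the 6 other members with such a mean, the closest, *Map3k7*, was 3230th in the order at 0.70, and *Map3k12* was 9587th at 1.07.

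*Map3k1* lies on the chromosome that carries *Isl1* and the Cre knock-in, 4.50 Mb away. By the genotypes named for the sort both groups carried that allele, although the genotype of each control embryo is not stated. Within 5 Mb of its start site, a distance chosen after values were seen, 25 other genes had a mean of at least 50. Of these 25, 18 were lower and 7 higher in *Hif1aCKO*, with a median log2 fold change of -0.20. The groups of 9 (36%) did not overlap, 7 lower and 2 higher, beside 27.0% of the 10842 genes with such a mean. *Mier3*, with its start site at -0.128 Mb from that of *Map3k1*, was at 587 and 738 in controls and 404, 438 and 393 in *Hif1aCKO* (-0.69 ± 0.19). *Isl1* was lower (-0.67 ± 0.10), and *Depdc1b* was higher, at 167 and 144 in controls and 399, 480 and 375 in *Hif1aCKO* (1.43 ± 0.25). The next genes on either side, *Gpbp1* (-0.12 ± 0.18) and *Il6st* (0.32 ± 0.61), had overlapping groups, and none of the 25 was as low as *Map3k1*. The part of strain background in these values was not tested.

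**Figure D5:**
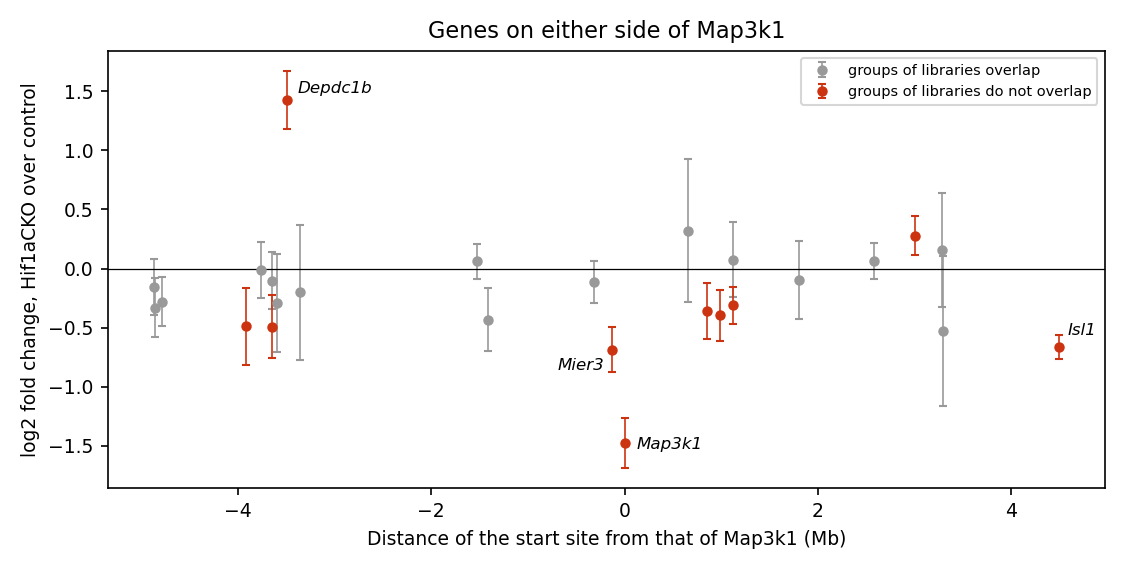
Log2 fold change, *Hif1aCKO* over control, of *Map3k1* and the 25 genes with a mean normalized count of at least 50 within 5 Mb, against the distance of their start sites from that of *Map3k1* in Mb (bars are standard errors). Genes in red had groups that did not overlap, *Map3k1* is lowest at -1.48, *Mier3* beside it is at -0.69, and *Depdc1b* is highest at 1.43.

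Marker lists were read in the same libraries. All 12 genes of a cell division list were higher in *Hif1aCKO*, 9 of them at an unadjusted p-value under 0.05 in edgeR, 0 called by edgeR and 4 by DESeq2, with sums of 19852 to 22449 in controls and 27930 to 35551 in *Hif1aCKO*. Of 16 sympathetic neuron markers, 5 were higher and 11 lower, 7 of them at an unadjusted p-value under 0.05, 0 called by edgeR and 1 by DESeq2, with sums of 87192 to 108522 in controls and 76729 to 81555 in *Hif1aCKO*. The 4 tested genes of a list of motor neuron markers had a median log2 fold change of -1.01. Of these, only *Slc18a3* (-1.02 ± 0.32) was lower in all 3 *Hif1aCKO* libraries. *Lhx4* was unchanged within a wide error (-0.0082 ± 1.14), and its groups overlapped. Those of *Chat* (-0.996 ± 0.777) and *Slc5a7* (-1.36 ± 1.69) overlapped too. The sums of the list were 708 to 966 in controls and 353 to 540 in *Hif1aCKO*, of which *Slc18a3* made the most. Whether these counts came from motor neurons or from the sympathetic neurons themselves was not tested. *Mnx1* and *Lhx3* were not analysed here. Of the 4 tested chromaffin cell markers, 2 were higher and 2 lower. *Chgb* (-1.69 ± 0.66) and *Pnmt* (-1.91 ± 0.90, mean normalized count 22.4) were lower in all 3 *Hif1aCKO* libraries. *Cartpt* (1.04 ± 0.20) was higher in all 3, and *Chga* was at 0.01 ± 0.16. Their sums were 16117 to 17504 in controls and 16552 to 21996 in *Hif1aCKO*. Sums that did not overlap were common: those of 5 of the 8 pathway lists did not overlap either, 4 lower (MAP2K, MAPK, scaffolds and adaptors, phosphatases) and 1 higher (turnover). The part of these marker differences in the values of *Map3k1* and *Map3k12* was not tested.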

How the data were processed

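Libraries of 100 sorted cells were made with a low-input RNA-seq kit. The authors used cutadapt (version 1.18), bowtie (version 1.2.2) and SortMeRNA to clean the reads, STAR (version 2.7.0c) to map them to GRCm38 and Rsubread to count them per gene, leaving out multi-mapping reads. The deposited table holds raw counts, with no normalization.

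From these counts, Hif1aCKO was compared with control in edgeR (version 4.0.16, R 4.3.3) with TMM, filterByExpr and the quasi-likelihood test, Benjamini-Hochberg adjusted over 15032 genes. A call needed an adjusted p-value under 0.05, an absolute log2 fold change over 0.3 and a mean of 50 or more normalized counts, which are counts divided by the library's total times its TMM factor and brought to the mean library. Positions and exonic lengths came from GENCODE on GRCm38, and promoters from RefSeq. P-values measure only the spread between these libraries, which may be technical. No pair of libraries agreed within sampling noise (chi-square per degree of freedom 15.2 to 38.5).

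The members, lists and tests were chosen with earlier results of these data known. Named were the members, checks, the 3 genes of each list with the smallest p-value at a mean of 50 or more, MAP2K and MAPK genes above that mean (1 of them is not reported here), and the 5 genes nearest to Map3k1. Genes added after their values were seen were the antisense partners, Map3k13, Usp9x's list mates Mycbp2 and Fbxo45, Jun, Tab1, Tab2, Tab3, Dusp6, the named motor neuron and chromaffin markers and the neighbors of Map3k1. Alternatives were normalization by RLE or upper quartile, DESeq2 (version 1.42.0), limma-voom (version 3.58.1), other filters on low counts, other lengths and leaving out each library.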

Additional observations from a re-analysis of the deposited data

How the results depend on the processing

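DESeq2 called 60 genes where edgeR called 0, and *Map3k1* was among the 60. Leaving out each *Hif1aCKO* library in turn gave 0 calls in edgeR. In the 8 pathway lists, which leave out the members, the count of genes called was 0 under every alternative that kept both controls. Of 49 log2 fold changes of members with a library left out, 7 changed sign, all in members whose groups overlap. *Map3k11* ranged from -0.32 to 1.21, with the highest value without control 5. Of 58 values under the other alternatives, 1 changed sign and 0 moved by more than the spread between replicates. Named pathway genes kept their direction and stayed uncalled in 262 of 264 values. The exceptions were *Map4k3*, from -0.0071 (without *Hif1aCKO* replicate 4) to 0.36 with a library left out, and *Map2k4*, from -0.58 to 0.12 (without control replicate 6). Ranks by level per kb changed for 2 members with the longest transcript as length and for 5 with the coding length. The controls with *Map3k1* above *Map3k12* per kb were 2 of 2 on the union of exons and 0 with either other length. The coding length came from GENCODE. The count of members whose groups did not overlap was 2 with plain library totals and, as an alternative added after seeing the data, 3 without *Hif1aCKO* 3. The genes nearest to *Map3k1* were 5 of 5 the same with plain totals. Without a control library, 1 control is assumed to vary like the *Hif1aCKO* libraries. No paired analysis was possible because the groups share only replicate number 5. Depth limits *Map3k5*, *Map3k9* and *Map3k10*, whose mean normalized counts were under 50.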
